A study of Mus musculus with 8 samples.

Results

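The 45 genes described here make, transfer, break down or sense sphingolipids. They were listed by symbol from knowledge of the pathway, with earlier results of these data known, and their roles cover ceramide synthesis, glycosphingolipid synthesis, sphingomyelin, ceramidases and the enzymes and receptors of sphingosine 1-phosphate. Of the 45, 44 had a probe of that name on the array, with 56 probes in all out of 55681. Gene expression was measured with a 1-color Agilent mouse array in lumbar dorsal root ganglia (DRGs L3 to L5, where sensory neurons have their cell bodies) of 4 α-Gal A(-/0) samples, called FD for Fabry disease, and 4 wildtype samples. FD mice carry an inactivated gene for α-galactosidase A on their single X chromosome. All mice were male and 20 to 24 weeks old, both groups are labelled as strain C57BL/6J, neither received a treatment, and each sample pooled the DRGs of 2 of the 8 mice of its group. FD and wildtype mice came from separate inbred colonies, the FD colony being described in the methods only as of C57BL/6 background. Genotype and colony therefore cannot be told apart in any array comparison below. The gene is inactivated in all tissues of these mice, and a DRG sample mixes neurons, satellite glia, Schwann cells, vessels, macrophages and connective tissue.

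Sphingolipids are built on ceramide. Serine palmitoyltransferase starts the synthesis in the endoplasmic reticulum, ceramide synthases attach the fatty acid, and ceramide is then turned into glucosylceramide, galactosylceramide or sphingomyelin, or is cut to sphingosine and phosphorylated. Glucosylceramide is the root of the globosides, among them Gb3, the lipid that α-galactosidase A degrades in lysosomes and that accumulates in Fabry disease. In peripheral nerve, galactosylceramide and its sulfated form are major lipids of Schwann cell myelin.

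Of the 44 genes on the array, 42 had a probe well above background on all 8 arrays and were tested, each through its brightest such probe. The remaining genes were not above background on every array. Sptlc3, a catalytic subunit of serine palmitoyltransferase, was above background on 0 arrays with either of its 2 probes. Acer2, an alkaline ceramidase, had 1 probe above background on 2 FD and 3 wildtype arrays and another on 0. Cers1, a ceramide synthase of neurons, had no probe under its own symbol and is not among the 42 genes. Another 2 probes, named Gdf1, also list a Cers1 transcript. Their log2 fold changes were 0.17 ± 0.10 (SE; limma, adjusted p = 0.414) and 0.04 ± 0.24 (adjusted p = 0.944). As the 42 genes passed by being above background in both groups, no gene entered through 1 group alone.

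In FD DRGs 2 genes were upregulated at an adjusted p under 0.05, and 0 were downregulated. They were Ormdl1, an inhibitor of serine palmitoyltransferase, at 1.43-fold, and Sgpl1, the lyase that irreversibly cleaves sphingosine 1-phosphate, at 1.27-fold. This was 4.76% of the 42 genes, beside 3.12% of the 21003 genes tested on the array (2.02% upregulated and 1.1% downregulated), so the share called was near that of all genes. The count was 0 without FD sample 2, 2 without wildtype sample 1 and 1 without any of the other samples. In pooled tissue such as this, fewer cells of a type and less RNA per cell cannot be told apart. At the thresholds of the methods, an unadjusted p of at most 0.01 with an absolute fold change of at least 1.2, and with the p taken from limma, 3 genes were higher (Ormdl1, Sgpl1 and Ugcg) and 0 lower, beside 6.06% of all genes (3.67% higher and 2.39% lower). When the methods' t-test supplied the unadjusted p instead, 2 were higher (Sgpl1 and Ugcg) and 0 lower, Ormdl1 having an unadjusted p of 0.0172. The median log2 fold change of the 42 genes was 0.0099, against 0.019 over all genes, and 23 of 42 (54.8%) were positive, beside 55.7% of all genes. Changes were small throughout. They ranged from -0.23 (Cers6) to 0.51 (Ormdl1) on the log2 scale, and 3 of 42 reached a fold change of 1.2 in either direction, beside 13.6% of all genes.

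**Figure D1:**
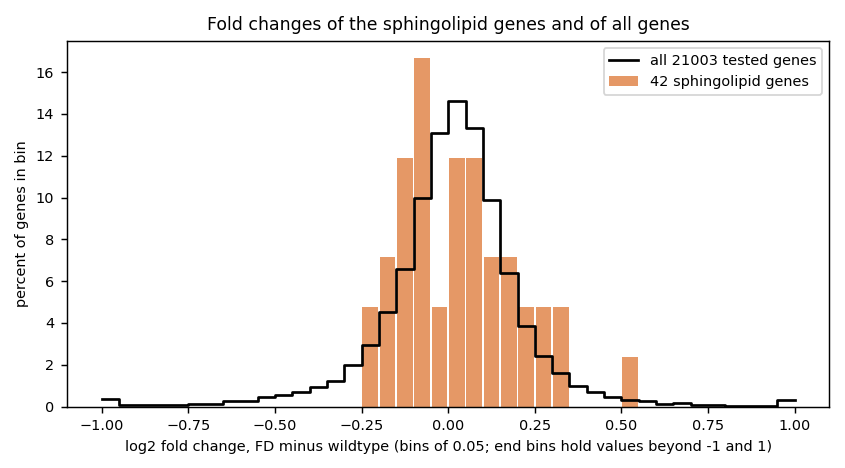
Distribution of log2 fold changes, FD minus wildtype (x axis, bins of 0.05), as the percent of genes in each bin (y axis), for the 42 sphingolipid genes (bars) and all 21003 tested genes (line). The sphingolipid genes lie between -0.23 and 0.51, inside the span of all genes.

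The sequences just upstream of the transcription starts are shown for the 2 upregulated genes and for Ugcg, the third gene past the thresholds of the methods in limma. They are the 250 bases before the start, 5′ to 3′ on the strand of the gene, from RefSeq (GRCm38.p6), where 39 of the 45 genes were matched. Capitals mark GGGCGG (the GC box) or its reverse complement CCGCCC, and CCAAT (the CCAAT box) or its reverse complement ATTGG. Ormdl1 lies at chr1:53296845-53297094 (+), Sgpl1 at chr10:61147685-61147934 (-) and Ugcg at chr4:59189300-59189549 (+).
Ormdl1: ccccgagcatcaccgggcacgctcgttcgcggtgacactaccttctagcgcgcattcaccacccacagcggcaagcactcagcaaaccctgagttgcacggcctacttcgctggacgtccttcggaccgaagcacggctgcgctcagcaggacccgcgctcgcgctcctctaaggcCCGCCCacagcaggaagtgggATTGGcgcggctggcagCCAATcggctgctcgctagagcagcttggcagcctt
Sgpl1: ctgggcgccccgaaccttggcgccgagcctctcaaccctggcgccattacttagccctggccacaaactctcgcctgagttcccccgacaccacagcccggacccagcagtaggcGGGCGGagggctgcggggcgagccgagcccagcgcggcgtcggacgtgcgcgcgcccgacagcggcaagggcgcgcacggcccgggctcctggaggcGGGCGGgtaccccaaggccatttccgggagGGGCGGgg
Ugcg: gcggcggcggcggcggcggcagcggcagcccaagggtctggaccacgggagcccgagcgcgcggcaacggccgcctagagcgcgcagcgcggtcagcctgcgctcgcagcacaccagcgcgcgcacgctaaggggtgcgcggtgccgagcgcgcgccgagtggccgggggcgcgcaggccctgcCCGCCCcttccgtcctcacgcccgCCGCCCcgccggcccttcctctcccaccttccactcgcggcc
The GC box occurred 1 time before Ormdl1, 3 times before Sgpl1 and 2 times before Ugcg. The 39 matched genes had 56 promoters in the table, of which 32 (57.1%) held it, beside 32.7% of all 32851 promoters of the same length. The CCAAT box occurred 2 times before Ormdl1, 1 in each orientation, and 0 times before Sgpl1 and Ugcg, and was held by 19 of the 56 promoters (33.9%), beside 33.8% of all. The E-box CACGTG, which reads the same on both strands, was in 0 of the 3 windows, in 8 of the 56 promoters (14.3%) and in 6.02% of all promoters. All promoters were counted whatever their base content, and whether or not their genes were expressed in DRGs. The shares were not adjusted for either. Promoters of 1 gene can share bases, and such matches describe letters only. The matches in the 3 printed windows do not overlap each other.

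The Ormdl proteins sit in the endoplasmic reticulum membrane and hold back serine palmitoyltransferase when ceramide is plentiful. Ormdl1 (NM_145517; probe at chr1:53366766-53366825, mm9) had log2 signals of 11.08, 11.06, 11.06 and 11.19 in FD samples 1 to 4, against 10.26, 10.57, 10.75 and 10.75 in wildtype samples 1 to 4. All FD samples lay above all wildtype samples, and wildtype sample 1 was the lowest. The means were 11.10 ± 0.061 in FD and 10.58 ± 0.23 in wildtype (SD, n = 4 each), a log2 fold change of 0.51 ± 0.11 (SE; limma, adjusted p = 0.0434). The arrays lay in 2 rows of the slide, and the difference was 0.80 between 3 FD and 1 wildtype samples of the first row and 0.50 between 1 FD and 3 wildtype samples of the second. The call was lost when any FD sample or wildtype sample 2, 3 or 4 was left out (adjusted p 0.0538 to 0.118). Without wildtype sample 1 it stayed, at a log2 fold change of 0.41 (adjusted p = 0.0218). The methods' t-test gave an adjusted p of 0.217. Among 17 other tested genes within 1 Mb of Ormdl1, 1 was called, Stk17b, which was upregulated.

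Its relatives had smaller differences. Ormdl2 had a log2 fold change of 0.16 ± 0.088 (adjusted p = 0.373), with values of 11.85 to 12.06 in FD and 11.58 to 11.97 in wildtype samples, which overlap. Ormdl3 had 0.08 ± 0.049 (adjusted p = 0.423), with 13.81 to 13.84 in FD and 13.69 to 13.77 in wildtype samples. The Ormdl3 groups do not overlap, which also held for 8.62% of all genes in the upward and 5.13% in the downward direction. Over the 42 sphingolipid genes, groups did not overlap for 7 higher genes (Kdsr, Ormdl1, Ormdl3, Ugcg, Asah1, Sgpl1 and S1pr2) and 2 lower genes (B4galt6 and Sgms1), 9 beside 13.7% of all genes. Whether Ormdl1 differs in its change from the other members of the family was not tested.

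**Figure D2:**
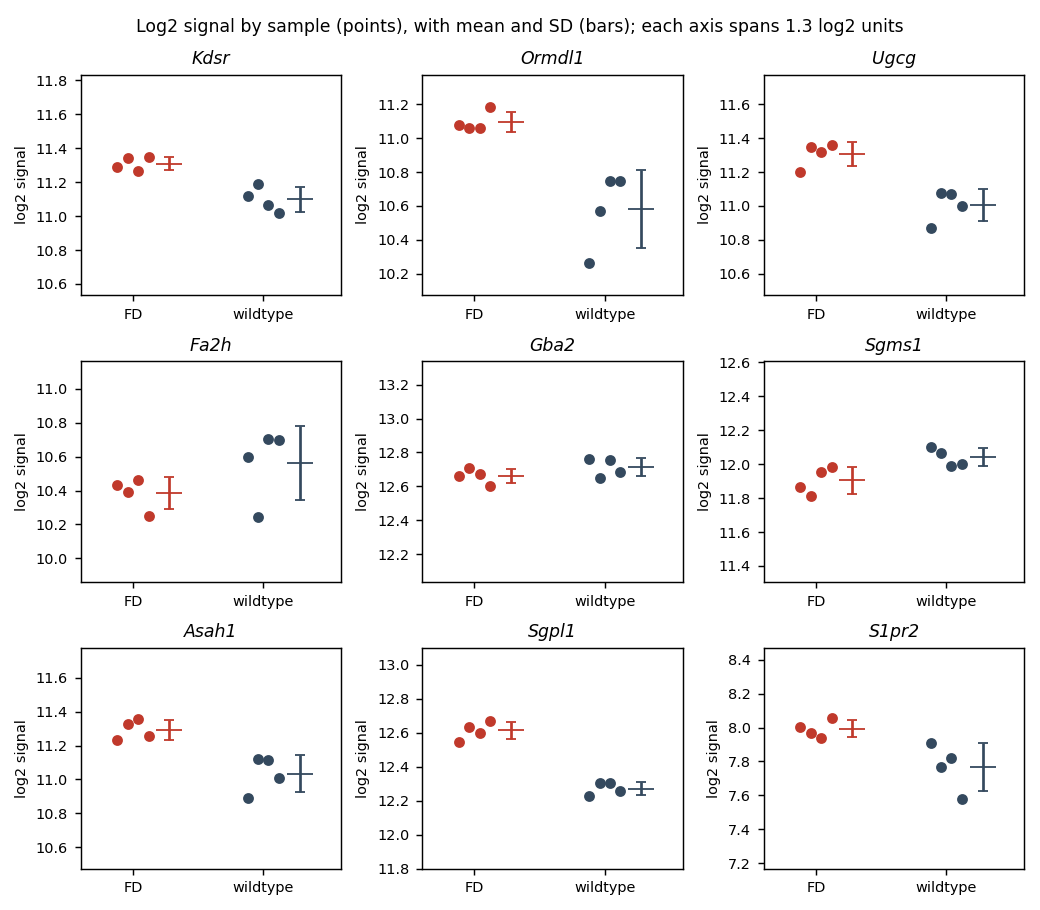
Log2 signal (y axis) of each FD sample (left, red) and wildtype sample (right, blue) for the 9 genes given by sample, with mean and SD beside the points. All y axes span the same range on the log2 scale. Ormdl1, Sgpl1, Ugcg, Kdsr, Asah1 and S1pr2 lie higher in all FD samples, Sgms1 lies lower, and Fa2h and Gba2 overlap.

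The 9 tested genes of ceramide synthesis had 0 calls in either direction. Kdsr, the reductase of the second step, had the smallest p of this group. Its log2 signals were 11.29, 11.34, 11.26 and 11.35 in FD, against 11.12, 11.19, 11.06 and 11.02 in wildtype. FD samples were higher without overlap, by 0.21 ± 0.057 (SE, adjusted p = 0.0971). The subunits of serine palmitoyltransferase, which carries out the first step, had log2 fold changes of 0.09 ± 0.069 (Sptlc1) and 0.03 ± 0.097 (Sptlc2). Ceramide synthases, which differ in the fatty acid they attach, ran from -0.23 ± 0.15 for Cers6 to 0.01 ± 0.086 for Cers2, with Cers5 at -0.13 ± 0.066 and Cers4 at -0.06 ± 0.057. The 2 desaturases that convert dihydroceramide, Degs1 and Degs2, were at 0.12 ± 0.065 and 0.25 ± 0.086, with adjusted p of 0.368 and 0.173. Adjusted p for Sptlc1, Sptlc2 and the ceramide synthases ran from 0.331 (Cers5) to 0.965 (Cers2). The probe of Cers6 was dim, at 5.94 to 6.09 in FD and 6.01 to 6.74 in wildtype samples, and wildtype sample 3 held the highest value.

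Glucosylceramide synthase, Ugcg, makes the substrate for all globosides and most gangliosides. Its log2 signals were 11.20, 11.35, 11.32 and 11.36 in FD, against 10.87, 11.08, 11.07 and 11.00 in wildtype (NM_011673; probe at chr4:59235333-59235392, mm9). All FD values were above all wildtype values. The log2 fold change was 0.30 ± 0.067, 1.23-fold, with an unadjusted p of 0.00172 and an adjusted p of 0.0526, so it met the thresholds of the methods and was not called. It was called in 5 of 18 alternatives, with adjusted p 0.0297 to 0.0446. The change was 0.42 between the 3 FD and 1 wildtype samples of the first slide row. In the second row, with 1 FD and 3 wildtype samples, it was 0.31.

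The enzymes downstream of Ugcg had 0 calls. B4galt5 and B4galt6, which make lactosylceramide, were at -0.04 ± 0.073 and -0.16 ± 0.054, the B4galt6 groups not overlapping (unadjusted p = 0.0159, adjusted p = 0.165). A second B4galt6 probe was at -0.05 ± 0.061 with overlapping groups (adjusted p = 0.720), and a second, dim B4galt5 probe at -0.37 ± 0.24 (adjusted p = 0.459). A4galt, the Gb3 synthase, was at 0.10 ± 0.14 (adjusted p = 0.769), with 8.24 to 8.62 in FD and 8.18 to 8.76 in wildtype samples. Its 95% interval ran from -0.23 to 0.42, the widest of the 42 but for Cers6. Of the ganglioside enzymes, St3gal5 (GM3 synthase) was at 0.09 ± 0.10, B4galnt1 at -0.09 ± 0.14 and St8sia1 (GD3 synthase) at -0.21 ± 0.078 (adjusted p = 0.208).

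The 3 genes of myelin galactolipids all had negative log2 fold changes and 0 calls. Ugt8a, which transfers galactose to ceramide, was at -0.12 ± 0.11, Gal3st1, which adds the sulfate, at -0.004 ± 0.089, and Fa2h, which hydroxylates the fatty acid, at -0.18 ± 0.11 (adjusted p = 0.436). Fa2h had 10.43, 10.39, 10.46 and 10.25 in FD, against 10.60, 10.24, 10.70 and 10.70 in wildtype. FD sample 4 and wildtype sample 2 were low for all 3 genes. The mean log2 signal over 12 Schwann cell and myelin markers (Mbp, Pmp22, Prx, Cnp and others) was also lowest within each group in those samples. It was 12.06, 12.05, 11.98 and 11.89 in FD, against 12.13, 11.92, 12.18 and 12.20 in wildtype. All 12 markers had negative log2 fold changes (median -0.10), 3 of them with an unadjusted p under 0.05, and 0 were called. The share of all genes at that unadjusted p is not given here. What these markers contribute to the galactolipid genes was not tested.

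**Figure D3:**
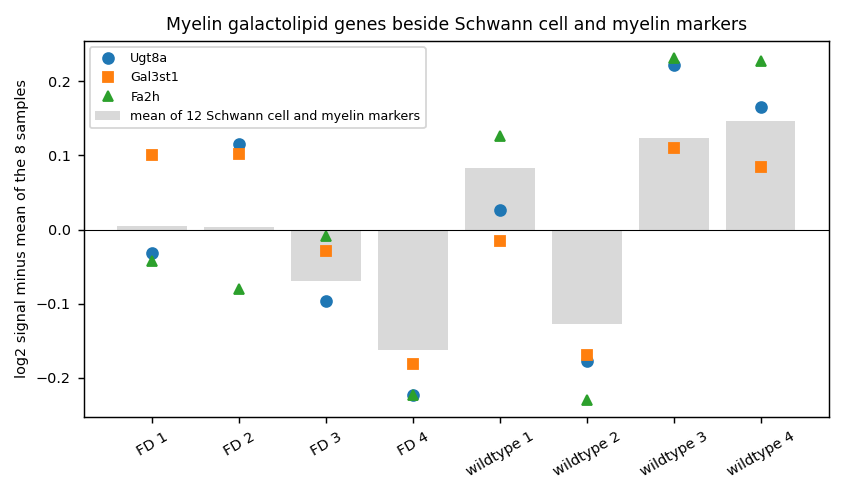
Log2 signal minus the mean of the 8 samples (y axis) for Ugt8a, Gal3st1 and Fa2h (symbols) and for the mean of 12 Schwann cell and myelin markers (gray bars), by sample (x axis, FD 1 to 4 left, wildtype 1 to 4 right). FD sample 4 and wildtype sample 2 are low, at -0.16 and -0.13 for the marker mean, and wildtype samples 3 and 4 are high.

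Glucosylceramide outside the lysosome is cut by Gba2 and moved between membranes by Gltp. Gba2 had 12.66, 12.71, 12.67 and 12.60 in FD, against 12.76, 12.65, 12.76 and 12.69 in wildtype, and these overlapping groups differed by -0.05 ± 0.054 on the log2 scale (adjusted p = 0.648). Gltp was at 0.006 ± 0.064 with its brighter probe and -0.04 ± 0.11 with the other, the only 1 of 10 genes with 2 tested probes in which the signs differed.

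Sphingomyelin synthase Sgms1 had 11.87, 11.81, 11.95 and 11.99 in FD, against 12.10, 12.07, 11.99 and 12.00 in wildtype. The highest FD value lay below the lowest wildtype value by less than the rounding used here. The log2 fold change was -0.14 ± 0.060 (adjusted p = 0.290). A second probe, of an Ensembl transcript, had -0.31 ± 0.11 with overlapping groups (adjusted p = 0.174). Sgms2, the synthase of the plasma membrane, was at 0.16 ± 0.093. Of the sphingomyelinases, which release ceramide, lysosomal Smpd1 was at 0.09 ± 0.056, Smpd2 at 0.12 ± 0.080, Smpd3 at 0.15 ± 0.095 and Smpd4 at -0.05 ± 0.059. The adjusted p of Sgms2 and the 4 sphingomyelinases ran from 0.420 to 0.690.

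Acid ceramidase, Asah1, splits ceramide in lysosomes. It had 11.23, 11.32, 11.36 and 11.26 in FD, against 10.89, 11.12, 11.12 and 11.01 in wildtype, and the groups did not overlap. The log2 fold change was 0.26 ± 0.069 (unadjusted p = 0.0047, adjusted p = 0.0889). Its second probe, read in the same samples, gave 0.25 ± 0.10 with overlapping groups (adjusted p = 0.250). The neutral ceramidase Asah2 was at -0.15 ± 0.10, alkaline Acer3 at 0.16 ± 0.093 and ceramide kinase, Cerk, at -0.16 ± 0.066 (adjusted p = 0.260).

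Sphingosine 1-phosphate is made by the kinases Sphk1 and Sphk2, dephosphorylated by the phosphatases Sgpp1 and Sgpp2, and destroyed by the lyase Sgpl1. Sgpl1 (NM_009163; probe at chr10:60561392-60561451, mm9) had 12.55, 12.63, 12.60 and 12.67 in FD, against 12.22, 12.30, 12.30 and 12.25 in wildtype. FD samples were all higher, and the gap between the groups was larger than the range within either. Means were 12.61 ± 0.052 in FD and 12.27 ± 0.039 in wildtype (SD, n = 4 each), so that FD exceeded wildtype by 0.34 ± 0.053 (SE) on the log2 scale (adjusted p = 0.0117). The change was 0.37 between the 3 FD and 1 wildtype samples of the first slide row. In the second row, with 1 FD and 3 wildtype samples, it was 0.39. The call was lost without FD sample 2 (adjusted p = 0.0530). The methods' t-test gave an adjusted p of 0.0231. Among 26 other tested genes within 1 Mb, 0 were called. The kinases and phosphatases were at 0.03 ± 0.065 (Sphk1), -0.09 ± 0.12 (Sphk2), -0.05 ± 0.055 (Sgpp1) and 0.01 ± 0.056 (Sgpp2), with adjusted p of 0.664 to 0.949.

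The receptors S1pr1, S1pr2 and S1pr3 couple extracellular sphingosine 1-phosphate to G proteins. S1pr2 had 8.00, 7.97, 7.94 and 8.06 in FD, against 7.91, 7.77, 7.82 and 7.58 in wildtype. Its log2 fold change was 0.23 ± 0.077 (adjusted p = 0.170), without overlap. S1pr1 was at -0.08 ± 0.072 and S1pr3 at -0.14 ± 0.068, with adjusted p of 0.578 and 0.339.

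**Figure D4:**
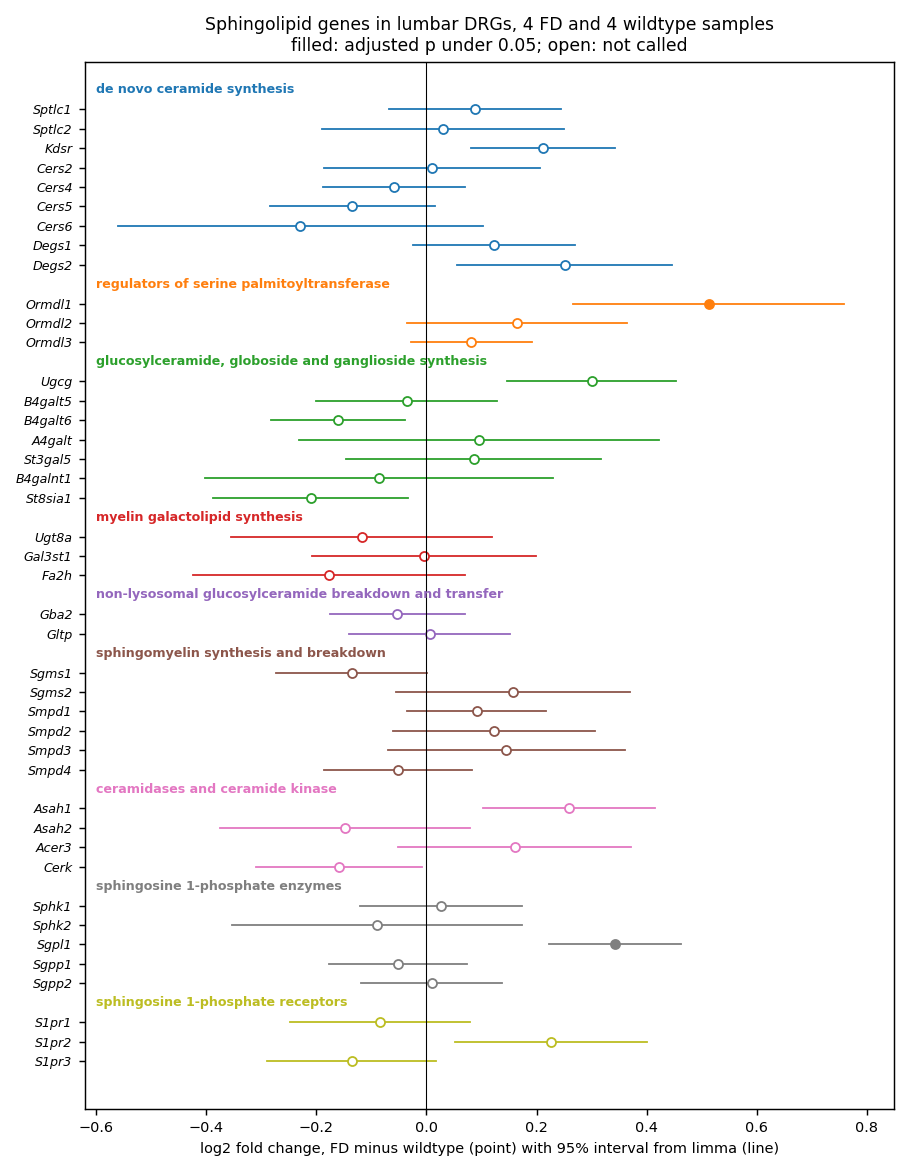
Log2 fold change, FD minus wildtype (x axis, point), with its 95% interval from limma (line), for the 42 tested genes grouped by role (rows). Filled points mark Ormdl1 and Sgpl1, the genes with an adjusted p under 0.05, and 32 of 42 intervals include 0.

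How far small changes could be seen is given by the intervals. The margin on each side of the 95% interval ran from 0.11 to 0.33 on the log2 scale, with a median of 0.16. For 15 of 42 genes the whole interval lay within 1.2-fold in either direction, and for 41 of 42 within 1.5-fold. The 10 genes with 2 tested probes had the same sign in 9, and the probes differed by 0.0056 to 0.34 in log2 fold change, the largest gap being in B4galt5, whose second probe was dim. The median SD was 0.068 over FD and 0.11 over wildtype samples, larger in wildtype for 33 of 42 genes (78.6%, beside 71.7% of all genes). Wildtype samples 1 and 2 each were the lowest or highest of their group in 29 of 42 genes (69.0%), beside 69.7% of all genes for wildtype sample 1 and 57.9% for wildtype sample 2.

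Of 43 other genes of the pathway, 33 were tested, 1 was upregulated and 0 were downregulated, 3.03% called beside 3.12% of all genes. The upregulated gene was Samd8, which makes ceramide phosphoethanolamine. It had 8.39, 8.44, 8.54 and 8.45 in FD, against 7.50, 7.47, 7.32 and 7.51 in wildtype, a log2 fold change of 1.01 ± 0.064 (adjusted p = 8.75e-05). This was larger than the change of any of the 42 genes. The paper also measured Samd8 by RT-qPCR in separate samples, from backcrossed FD mice and wildtype mice, and found it not regulated. The backcross was used there to control for effects of the inbred colonies. Why the array and RT-qPCR results for Samd8 differ was not tested. Within 1 Mb of Samd8, 12 other genes were tested, and 1, Comtd1, was called and upregulated. Log2 fold changes were positive in 22 of the 33 genes (66.7%), beside 55.7% of all genes. The 11 tested genes of ceramide synthesis among the 33 had 0 calls and ran from -0.38 to 0.26. Their lowest was Sptssa, a small subunit of serine palmitoyltransferase, at -0.38 ± 0.12 (adjusted p = 0.143).

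Over the series, between 56.5% and 60.8% of probes per array stood well above background, and sample pairs correlated at 0.996 to 0.998 within FD, 0.991 to 0.996 within wildtype and 0.990 to 0.995 between the groups. The Gla probe, of the gene for α-galactosidase A, had 16.59 ± 0.096 in FD and 16.62 ± 0.11 in wildtype (SD, n = 4 each), an adjusted p of 0.879. It does not check the genotype labels if it lies outside the disrupted part, which was not known here. Of markers of other cell types, 0 of 10 were called in endothelium, 0 of 11 in macrophages and 0 of 9 in satellite glia. In a list for fibroblasts and meninges, named fibroblast markers below, 0 of 10 were called. In sensory neurons 1 of 16 was called (Snap25, lower). The share called over all genes was 3.12%. Lower values at an unadjusted p under 0.05 were found for 4 endothelial, 3 neuronal, 2 fibroblast, 1 macrophage and 0 satellite glia markers. Higher values at that threshold were found for 1 macrophage, 1 neuronal, 0 endothelial, 0 fibroblast and 0 satellite glia markers. The share of all genes at that unadjusted threshold is not given here, so whether these marker counts are unusual cannot be read from them. At the thresholds of the methods, 2 of 10 fibroblast and 2 of 16 neuronal markers were lower, beside 2.39% of all genes. The 1 higher macrophage marker, of 11 tested, met these thresholds (log2 fold change 0.51), beside 3.67% of all genes higher. Log2 fold changes were positive in 0 of 10 fibroblast, 1 of 10 endothelial, 1 of 11 macrophage, 5 of 16 neuronal and 6 of 9 satellite glia markers, beside 55.7% of all genes. The part of these markers in the results above was not tested. Neuronal markers averaged 14.93 to 14.99 in FD and 14.96 to 15.10 in wildtype samples, so the labelled tissue held neuronal RNA in all samples.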

How the data were processed

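The authors hybridized 8 samples to the arrays of 1 slide, which was scanned 1 time. For each spot the deposited scanner output gives intensity, corrected for background in Agilent Feature Extraction (version 10.7.3.1 in the submitters' processing notes). A deposited table of log2 values, quantile normalized by the authors in GeneSpring, served as an alternative. Probe positions are on mm9, as the files give them.

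Spots of a probe were averaged as log2 processed signal, leaving out controls and outlier spots (93 to 221 per array), and quantile normalized between arrays with limma 3.58.1 in R 4.3.3. All 29432 probes well above background on all 8 arrays were fitted by group with limma's empirical Bayes model, with Benjamini-Hochberg adjustment over all of them. Called means an adjusted p under 0.05. Each gene is represented by its brightest tested probe. Values of every sample are given for called genes, genes at the thresholds of the methods (unadjusted p from limma) and the gene with the smallest p in each role group. Arrays hold no read depth, and their number limits the precision. Samples are separate pools of mice, so p-values set the group difference against the spread between pools of a group. They do not take in the spread between single mice or between colonies. The model was tested on simulated data. The members and gene lists were chosen with earlier results of these data known. Alternatives were another background correction, 75th percentile scaling, other filters, the methods' t-test, array weights, blocks, the deposited table, another choice of probe and leaving out each sample. Of the Schwann cell and myelin markers first listed, 2 are not reported here and were left out of the list's values.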

Additional observations from a re-analysis of the deposited data

Results flagged for a closer look

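A sample stood far from the other 3 of its group in 3 of the 84 groups examined (42 genes in each of FD and wildtype), and chance alone picks out about 1 in 20 groups. Ormdl1 in FD sample 4 was 11.19, the nearest other FD sample being 11.08. B4galt5 in FD sample 3 was 13.41, with 13.30 nearest. Smpd1 in wildtype sample 1 was 14.26, with 14.13 nearest.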

How the results depend on the processing

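Log2 fold changes of the 9 genes given by sample kept their sign under the 18 alternatives run for each. The median of the 42 genes ran from -0.0071 to 0.039, and the other pathway genes had 1 upregulated and 0 downregulated in each alternative. The 2 upregulated genes became 4 with normexp, 5 with array weights, 1 without a background filter, 1 with probes above background on 4 of 8 arrays, 1 with the methods' t-test and 0 to 2 when a sample was left out. Array weights also gave 2 downregulated genes (B4galt6 and St8sia1). At the thresholds of the methods, the slide row as a block gave 5 higher genes, array weights gave 1 lower gene, and leaving out a sample gave 0 to 1 lower genes (1 without wildtype sample 2). Over all probes, 904 calls became 556 without a filter, 266 with the methods' t-test, 2102 with array weights and 414 to 1038 when a sample was left out. The cause was not tested. Ormdl1 lost its call in 11 of 18 alternatives and Sgpl1 in 2 of 18.

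Replicate numbers are shared by the groups. Samples of the same number correlated at -0.25 to 0.063 in their deviations from the group mean, and samples of different number at -0.12 to 0.20. Whether samples of the same number shared a processing step is not given by the labels and was not tested. A replicate block gave 284 probes called and 0 of the 42 genes upregulated, with adjusted p of 0.0927 for Ormdl1 and 0.0904 for Sgpl1. Signal over background limits Sptlc3 and Acer2, which have no test here.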
